A study of Mus musculus with 30 samples.

Results

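The 9 genes described here act in MHC class I antigen presentation and the interferon response, and were followed in mouse kidney: the heavy chains H2-K1 and H2-D1, their shared light chain B2m, the proteasome subunits Psmb8 and Psmb9, the peptide transporter subunit Tap1, the loading factor Tapbp (tapasin), the transcription factor Irf1 and the interferon-inducible surface protein Ly6e. The 9 genes were chosen with earlier results of these data known. All probe sets that the array annotation gives to these genes were then taken, with no regard to the values of single probe sets. They were 15 probe sets of 13179, 11 of them on the A array and 4 on the B array. The samples were total RNA from kidneys of C57BL/6 mice, an inbred laboratory strain, in 3 groups of 5 animals. Young controls were control-fed and 5 months old, old controls were control-fed and 30 months old, and calorie-restricted mice were 30 months old and had received less food. Each animal was measured once on each of the 2 array types, which are 1-colour oligonucleotide arrays, giving 30 samples. The labels name the comparison of old with young controls as that of ageing and the comparison of calorie-restricted with old controls as that of the diet. Each number in a title is taken here to stand for 1 animal, which the labels leave unsaid. The p-values therefore measure the spread between these samples, which may be technical.

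Class I molecules carry peptides from proteins of the cell interior to the cell surface, where cytotoxic T cells inspect them. A heavy chain pairs with B2m. The peptides come from proteasomes, in which Psmb8 and Psmb9 replace constitutive subunits after interferon-gamma exposure, and are carried into the endoplasmic reticulum by the Tap1 and Tap2 transporter. Tapasin holds the empty heavy chain at this transporter until a peptide is bound. Irf1 and factors related to it act on interferon response elements in promoters of these genes, and heavy-chain promoters also hold a site for NF-kappaB. In the healthy kidney class I is found mainly on endothelium, dendritic cells and macrophages, and at lower levels on tubule cells.

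The promoter elements of the class I chains are shown here because these chains are compared as a group below. A RefSeq table of assembly GRCm38.p6 held promoter windows for 8 of the 9 genes, and Ly6e is named only. In B2m the capitals mark the single match to the interferon element, a pair of GAAA repeats with any 2 bases between them. It is also a match to the narrower form in which the base before the second repeat is T, and lies 139 bases before the start (chr2:122147497-122147686, plus strand). In H2-K1 (chr17:34000429-34000458, minus strand) and H2-D1 (chr17:35262923-35262952, plus strand) they mark an NF-kappaB palindrome and, read on the other strand, a class I interferon element.
B2m: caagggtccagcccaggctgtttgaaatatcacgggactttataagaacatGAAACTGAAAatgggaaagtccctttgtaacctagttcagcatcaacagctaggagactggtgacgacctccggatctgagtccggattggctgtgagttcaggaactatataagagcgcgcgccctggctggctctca
H2-K1: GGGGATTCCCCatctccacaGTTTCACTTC
H2-D1: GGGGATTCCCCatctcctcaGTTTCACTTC
The 30 bases of H2-K1 and H2-D1 were the same at 29 positions and differed by A18T, counted from 1 at the 5′ end with the H2-K1 base first. On both strands of the 250 bases before the start, the interferon element lay in 2.98% of 32851 windows and its narrower form in 0.682%. The letters of the NF-kappaB palindrome and of the class I interferon element, both searched after the sequences had been read, lay in 0.0304% and 0.11%. TGACGTCA, the element bound by CREB factors and found in 1.55% of windows, was searched too and matched in no member's window. These matches are descriptions of letters. No binding was measured.

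Signal is given as scaled intensity. An array's background floor was the root mean square of the table's negative values, 1103 on the A array and 1822 on the B array, and a probe set was tested when above it on at least 5 arrays. Of the 15 member probe sets 11 were tested, and they cover 8 of the 9 genes. All 15 arrays lay above the floor for 8 probe sets, namely those of B2m, Tapbp, Irf1 and Ly6e, 3 of the 4 of H2-D1 and 1 of the 2 of H2-K1. The other H2-K1 probe set was above it on 11 arrays. The immunoproteasome subunits were near the floor, with Psmb9 (Msa.295.0_f_at) above it on 8 arrays and Psmb8 on 6 arrays (l11145_s_at) and 2 arrays (Msa.1629.0_s_at). Above the floor on no array were Tap1 (m55637_s_at), a second Psmb9 probe set (d14566_f_at) and an H2-D1 probe set marked as incomplete (M69069_i_at), so Tap1 has no measured level here. All heavy-chain probe sets carry the suffix f or i, which marks probes that match a sequence family or an incomplete set. The signals of H2-K1, H2-D1 and their near-identical class I relatives are therefore uncertain, and they are named here as the annotation names them.

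Across the series, 33.5% to 37.5% of values of an A array and 23.8% to 27.6% of values of a B array lay above the floor. Kidney markers were present, with all 11 probe sets of the list tested. Animals numbered 1 to 3 and animals numbered 4 and 5 stood apart in every group, along a component that held 37.3% of the variance within groups. The labels do not say what this number set is. On the B array 85 tested probe sets are of targets with several suffixes, and they are set apart as a class by these names. The order of probe sets of 1 such target was compared between groups, in tested and untested probe sets alike. Of 26 measured pairs, 25 were in opposite order in young and in old controls, against 0 of 27 in calorie-restricted mice and old controls. No member lay in that class. The young values of the B array members B2m, Psmb9 (Msa.295.0_f_at), Psmb8 (Msa.1629.0_s_at) and H2-D1 (x00246_f_at) could not be checked in this way.

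With age, all 11 tested member probe sets had a change above 0, with a median of 0.60 on the log2 scale against -0.04 over all 4512 tested probe sets. Of all tested probe sets 44.99% were above 0. The heavy-chain probe sets match a sequence family, so the 11 are not separate measures. Of the 11, 2 passed the test, Ly6e and 1 probe set of H2-K1, both higher in old controls. The background was 2.95% of tested probe sets called higher (5.05% called in either direction), and without the set-apart B array class it was 2.17% and 3.39%. Old controls lay wholly above young controls in 3 of the 11 members, Ly6e, H2-K1 and Tapbp, against a background of 3.41%. With the diet, 9 of the 11 had a change below 0, with a median of -0.29 against 0.03 over all tested probe sets, of which 54.61% were above 0. Only Tapbp passed, lower in calorie-restricted mice, where 1.71% of tested probe sets were called lower and 2.62% in either direction. Calorie-restricted mice lay wholly below old controls in 2 members, Tapbp and Ly6e, against a background of 2.37%. Both comparisons use the same old controls, so their changes are not independent of each other. The genes were chosen with earlier results of these data known, so setting them against the background is a description and no test. Between calorie-restricted mice and young controls 0 of the 11 passed, against a background of 5.72%, and 0 of the 11 were free of overlap, against 7.27%.

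**Figure D1:**
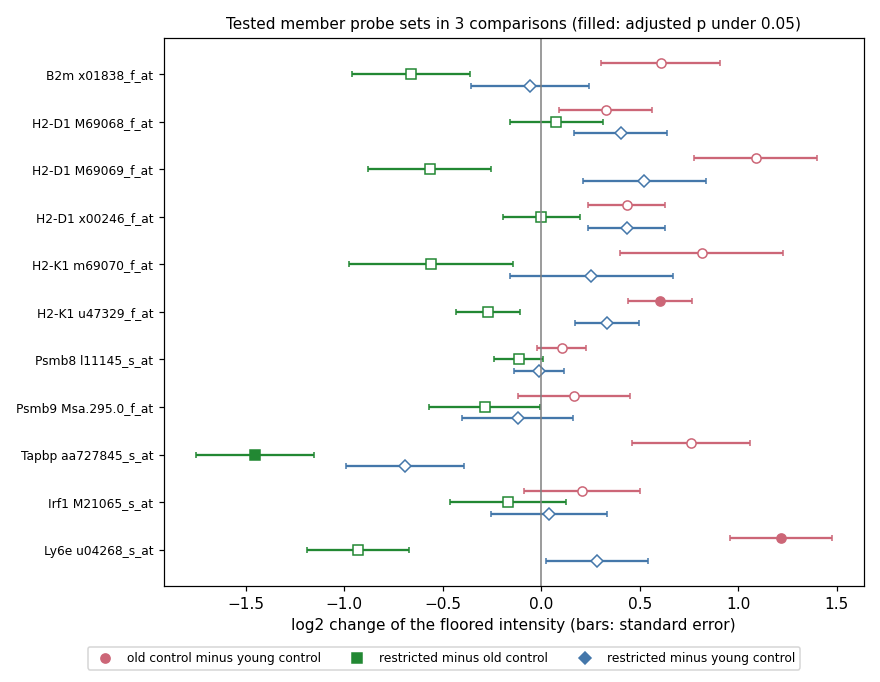
Log2 change of the floored intensity (horizontal axis, bars show the standard error) of the 11 tested member probe sets in 3 comparisons, with filled symbols for adjusted p under 0.05. The filled points are Ly6e at 1.21 and H2-K1 u47329_f_at at 0.60 with age, and Tapbp at -1.45 with the diet.

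The heavy chain H2-K1 rose with age in its brighter probe set, u47329_f_at. The scaled intensities of animals 1 to 5 were 8985, 11839, 10114, 10452 and 6996 in young controls. In old controls they were 12962, 12126, 16976, 15487 and 15409, and in calorie-restricted mice 15684, 12569, 9978, 11495 and 11074. Every old control was above every young control, by a small margin between the highest young and the lowest old animal, while the calorie-restricted mice overlapped both groups. The means were 9677 ± 1812 (SD, n = 5), 14592 ± 1993 and 12160 ± 2178. The age change was 0.60 ± 0.16 on the log2 scale (SE), a 1.52-fold difference with an adjusted p of 0.0402 by limma. It was 0.44 in animals 1 to 3 and 0.85 in animals 4 and 5. This call was lost in 18 of 30 other settings, among them 10 of the 15 that leave out 1 animal (young controls 1, 3, 4 and 5, old controls 3, 4 and 5, calorie-restricted mice 2, 4 and 5), with adjusted p-values from 0.0269 to 0.351 over all 30. The difference between calorie-restricted and old controls was -0.27 ± 0.16 (adjusted p = 0.484) and that between calorie-restricted mice and young controls 0.33 ± 0.16 (adjusted p = 0.291).

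The second H2-K1 probe set, m69070_f_at, was dim. It read 1178, 2683, 1798, 1935 and 1044 in young controls, 3759, 953, 4380, 3066 and 3659 in old controls, and 3751, 3381, 715, 1073 and 1896 in calorie-restricted mice. Old control 2 stood below the other old controls and below the floor, as did 1 young and 2 calorie-restricted mice, and all groups overlapped. The age change of 0.81 ± 0.41 did not pass (adjusted p = 0.354). Across the 15 animals the floored log2 values of the H2-K1 pair correlated with r = 0.79, and with r = 0.79 within groups, on the same arrays.

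H2-D1 had 3 probe sets above the floor, and none passed the test in any of the 3 comparisons. The first, M69068_f_at, read 8852, 10715, 10319, 11124 and 16656 in young controls, 8111, 10912, 16010, 18116 and 21975 in old controls, and 17821, 14812, 13470, 13562 and 15235 in calorie-restricted mice. Old controls spread over the widest range, from below all young controls to above all other mice, and the mean of 14980 ± 1765 in calorie-restricted mice was close to their 15025 ± 5558. Its changes were 0.33 ± 0.24 with age (adjusted p = 0.553) and 0.08 ± 0.24 with the diet (adjusted p = 0.922). M69069_f_at read 2692, 3751, 4022, 2861 and 4676 in young controls, 6671, 4293, 9188, 8670 and 10375 in old controls, and 8946, 5401, 2257, 5204 and 5884 in calorie-restricted mice. Only old control 2 lay within the young range. Its age change of 1.09 ± 0.31 was the largest among the class I chains and missed the threshold (adjusted p = 0.0558). It passed in 7 of 30 other settings, including those without old control 2 (adjusted p = 0.0211), calorie-restricted mouse 1 (0.0393) and calorie-restricted mouse 3 (0.0124). A fit that holds the number set as a term called it too (adjusted p = 0.0358). The diet change was -0.57 ± 0.31 (adjusted p = 0.436). The B array probe set x00246_f_at read 14543, 18775, 13994, 16048 and 16677 in young controls, 22851, 13208, 21631, 29505 and 23792 in old controls, and 27164, 24796, 16191, 21252 and 19844 in calorie-restricted mice. Old control 2 was again the lowest of its group, and all calorie-restricted mice lay within the range of the old controls. The change was 0.43 ± 0.19 with age (adjusted p = 0.274, and 0.046 without old control 2) and 0.00 ± 0.19 with the diet. The H2-D1 probe sets therefore did not give 1 answer for the diet, since their changes ran from -0.57 to 0.08. The differences between the probe sets were not tested.

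B2m, the light chain that all class I heavy chains need, was bright on the B array (x01838_f_at). Young controls read 11719, 19736, 18023, 22712 and 24887, old controls 22690, 19493, 23332, 44366 and 41968, and calorie-restricted mice 16029, 15242, 10760, 25558 and 28925. In each group animals 4 and 5 were above animals 1 to 3, by 0.56, 0.99 and 0.98 on the log2 scale in young controls, old controls and calorie-restricted mice. Old controls 4 and 5 exceeded all other mice, while old controls 1 to 3 lay within the range of the young controls. The means were 19416 ± 5052, 30370 ± 11803 and 19303 ± 7614. The change was 0.61 ± 0.30 with age (adjusted p = 0.338) and -0.66 ± 0.30 with the diet (adjusted p = 0.317), so neither passed. With the number set as a term in the limma fit both passed, with adjusted p-values of 0.0290 and 0.0257, and the age change also passed in animals 4 and 5 alone (0.0441). Calorie-restricted mice differed from young controls by -0.06 ± 0.30 (adjusted p = 0.96).

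**Figure D2:**
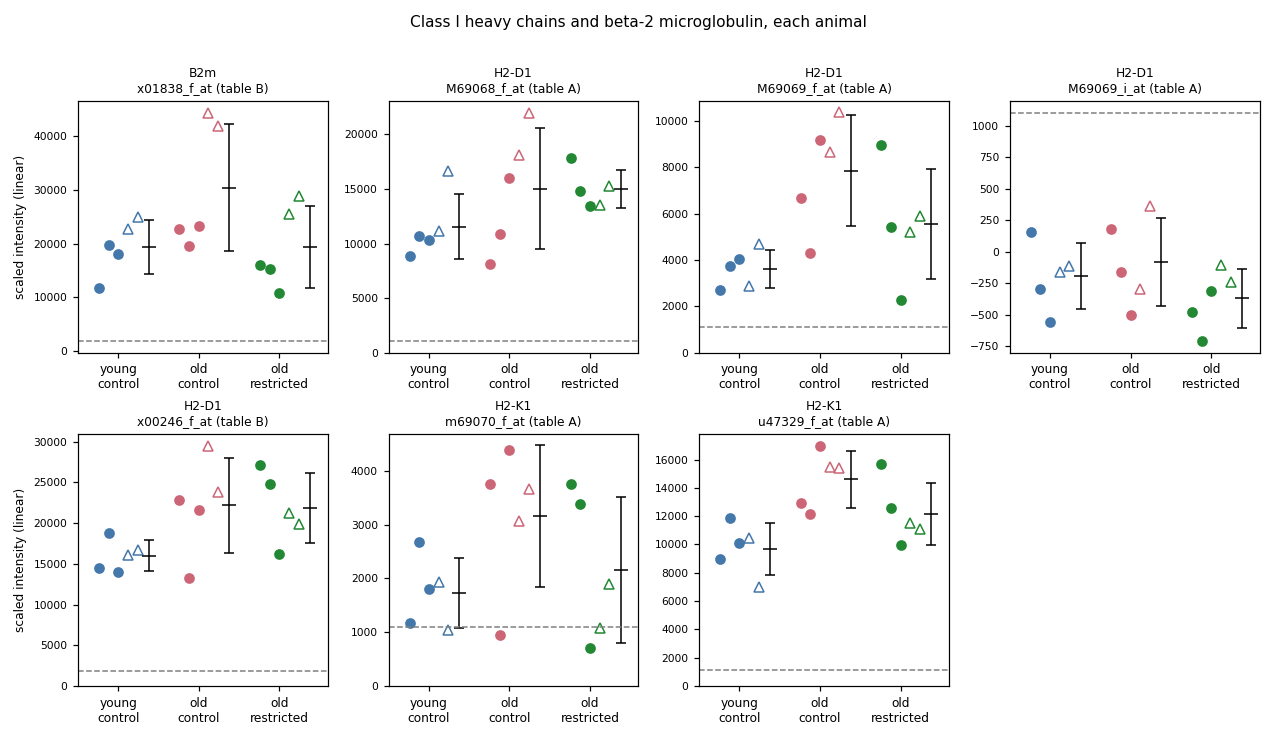
Scaled intensity (vertical axes, linear) of each animal for the 7 probe sets of the class I chains in young control, old control and calorie-restricted kidneys, with circles for numbers 1 to 3 and open triangles for numbers 4 and 5, a bar for the mean ± SD and a dashed line for the floor. In H2-K1 u47329_f_at the old controls, from 12126 to 16976, lie above all young controls, and in B2m the triangles lie above the circles in every group.

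Taking the class I chains as a group, 6 of 7 probe sets were tested. All 6 had age changes above 0, from 0.33 to 1.09, with a median of 0.60 against -0.04 over all tested probe sets, and 1 passed, where 2.95% of all tested probe sets were called higher. With the diet 4 of the 6 were below 0, with a range of -0.66 to 0.08 and a median of -0.41 against 0.03 over all, and 0 passed, where 1.71% of all were called lower. Against young controls the calorie-restricted mice had a median of 0.37 against -0.01, with 5 of 6 above 0 and 0 passing, where 5.72% of all were called. Over all tested probe sets 44.99%, 54.61% and 49.09% of changes were above 0 in these 3 comparisons.

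Tapbp, which encodes tapasin, was the only member called with the diet (aa727845_s_at). Young controls read 6250, 4993, 5821, 6357 and 5810. Old controls read 7439, 7195, 11396, 9771 and 15673, and calorie-restricted mice 1826, 5097, 2260, 5638 and 5134. Every calorie-restricted mouse was below every old control, and calorie-restricted mice 1 and 3 were the lowest of all 15 animals. The means were 5846 ± 537 (SD, n = 5), 10295 ± 3470 and 3991 ± 1798. Tapbp fell by 1.45 ± 0.30 on the log2 scale from old controls to calorie-restricted mice (SE), a 2.74-fold difference with an adjusted p of 0.0141 by limma. The change was -1.62 in animals 1 to 3 and -1.20 in animals 4 and 5. The call was kept in each of the 15 fits that leave out 1 animal and lost in 3 of the other 15 settings, with no filter on low values (adjusted p = 0.0688), with the 2 old groups alone (adjusted p = 0.0641) and with animals 4 and 5 alone (adjusted p = 0.177).

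With age, every old control was also above every young control for Tapbp, yet the change of 0.76 ± 0.30 did not pass (adjusted p = 0.201, from 0.0615 to 0.612 over the 30 other settings). Calorie-restricted mice differed from young controls by -0.69 ± 0.30 (adjusted p = 0.234), with overlap. That difference was -1.04 in animals 1 to 3 and -0.18 in animals 4 and 5.

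The genes that supply peptides gave little signal. Psmb9, the immunoproteasome subunit that replaces Psmb6, was measured by Msa.295.0_f_at, which read 1128, 1481, 1156, 4057 and 2521 in young controls, 1503, 1069, 1941, 4636 and 3696 in old controls, and 1742, 2038, 1523, 2546 and 2368 in calorie-restricted mice. Animals 4 and 5 were the highest of each group, and the groups overlapped throughout. The change was 0.17 ± 0.28 with age (adjusted p = 0.831) and -0.29 ± 0.28 with the diet (adjusted p = 0.689). Psmb8, which replaces Psmb5, read 559, 899, 770, 1183 and 1301 in young controls, 882, 548, 842, 1528 and 1444 in old controls, and 1082, 948, 278, 1239 and 1195 in calorie-restricted mice (l11145_s_at). Only animals 4 and 5 of each group exceeded the floor. Its changes of 0.10 ± 0.13 with age and -0.12 ± 0.13 with the diet (adjusted p = 0.758 and 0.729) are on floored values and understate any difference below the floor. The B array probe set of Psmb8, Msa.1629.0_s_at, was above the floor only in old controls 4 and 5, at 1893 and 1913, and was not tested. Tap1, 1 chain of the transporter, read between -154 and 455, and d14566_f_at of Psmb9 between -1683 and 58. In the reference table Psmb9, Tap1, Psmb8 and Tap2 lie next to each other on chromosome 17, and the starts of Psmb9 and Tap1 are 225 bases apart.

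**Figure D3:**
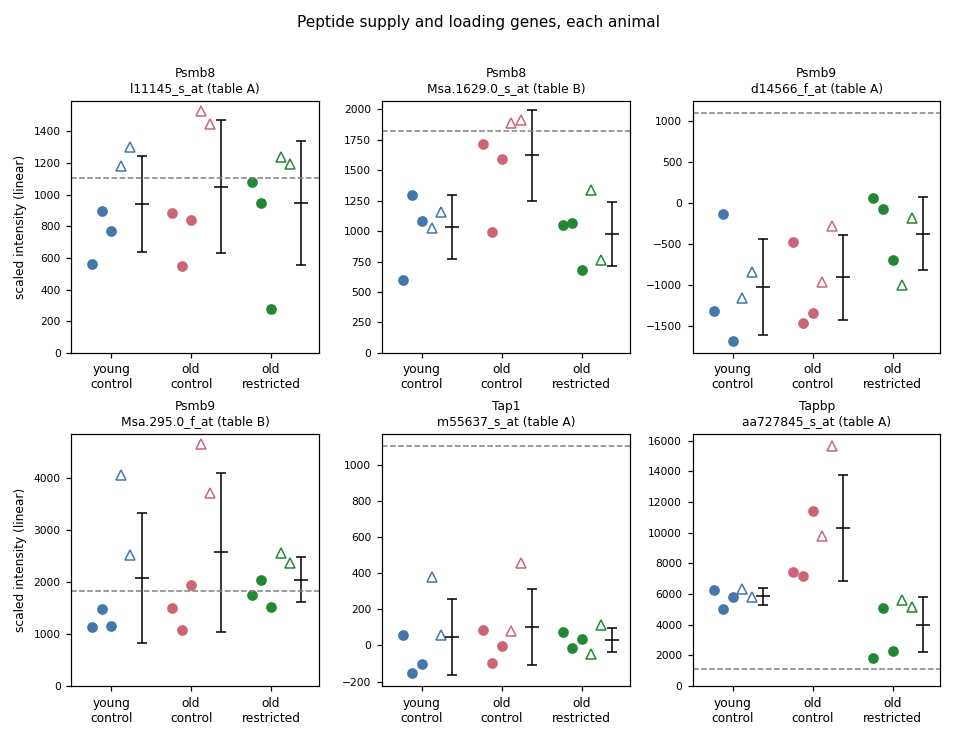
Scaled intensity (vertical axes, linear) of each animal for the 6 probe sets of peptide supply and loading, with circles for numbers 1 to 3, open triangles for numbers 4 and 5, a bar for the mean ± SD and a dashed line for the floor. Tapbp lies above the floor in all 15 animals, with calorie-restricted mice between 1826 and 5638 and old controls between 7195 and 15673, while Tap1 and Psmb9 d14566_f_at lie below it in all 15.

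As a group, 3 of the 6 probe sets of peptide supply and loading were tested. Their median change was 0.17 with age against -0.04 over all tested probe sets, with 0 passing, where 2.95% of all were called higher. With the diet the median was -0.29 against 0.03 over all, with Tapbp passing, where 1.71% of all were called lower. Against young controls the calorie-restricted mice had a median of -0.12 against -0.01, with 0 passing, where 5.72% of all were called. Tapbp was the only 1 of the 3 that was above the floor on all arrays, so the group's medians rest on 2 probe sets near background.

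Ly6e, a GPI-anchored membrane protein whose gene responds to interferons, had the largest age change among the members (u04268_s_at). Young controls read 22279, 22662, 21304, 12370 and 8107. Old controls read 31863, 36520, 46287, 31997 and 42176, and calorie-restricted mice 23582, 21610, 21671, 19086 and 13695. Old controls lay above all other mice, and the calorie-restricted mice lay within the young range or, in animal 1, just above it. The means were 17345 ± 6678 (SD, n = 5), 37768 ± 6359 and 19929 ± 3833. Ly6e rose by 1.21 ± 0.26 on the log2 scale with age (SE), a 2.32-fold difference with an adjusted p of 0.00805 by limma. This call was kept in all 30 other settings, with adjusted p-values from 0.000778 to 0.0423. The change was 0.77 in animals 1 to 3 and 1.88 in animals 4 and 5, where young controls 4 and 5 were the 2 lowest of all animals.

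The diet difference of Ly6e was -0.93 ± 0.26 and did not pass (adjusted p = 0.0741), although the groups did not overlap. It was -0.76 in animals 1 to 3 and -1.18 in animals 4 and 5. It passed in 5 of the 30 other settings, among them animals 1 to 3 alone (adjusted p = 0.0255), the old groups alone (0.0211), the number set as a term (0.0128) and without young control 5 (0.0205). Calorie-restricted mice differed from young controls by 0.28 ± 0.26 (adjusted p = 0.623).

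Irf1, a transcription factor induced by interferons, passed the test in none of the 3 comparisons (M21065_s_at). It read 3080, 1983, 3306, 1444 and 1410 in young controls, 2363, 2011, 4798, 1995 and 1865 in old controls, and 2464, 2164, 3057, 1707 and 1703 in calorie-restricted mice. Animals 4 and 5 were the lowest of each group, the reverse of B2m and Psmb9, and animal 3 was the highest of each group. The means were 2245 ± 898, 2606 ± 1239 and 2219 ± 569. The change was 0.21 ± 0.29 with age (adjusted p = 0.793) and -0.17 ± 0.29 with the diet (adjusted p = 0.841). As a group, Irf1 and Ly6e had a median of 0.71 with age and -0.55 with the diet, medians of 2 values that lie apart.

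**Figure D4:**
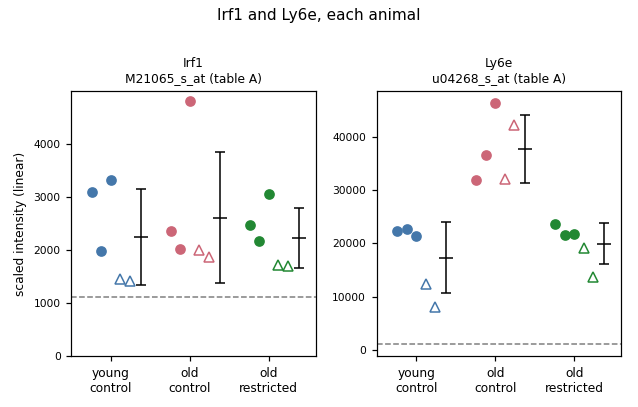
Scaled intensity (vertical axes, linear) of each animal for Irf1 and Ly6e in the 3 groups, with circles for numbers 1 to 3, open triangles for numbers 4 and 5, a bar for the mean ± SD and a dashed line for the floor. The old controls of Ly6e lie between 31863 and 46287, above all other animals, while the 3 groups of Irf1 overlap and its triangles lie below its circles.

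The number set moved with several members. Animals 4 and 5 lay above animals 1 to 3 in all 3 groups for 3 of the 11 tested members, B2m, Psmb8 and Psmb9, where 6.38% of tested probe sets did so. No comparison is read from this count, since Psmb8 was above the floor only in animals 4 and 5 and so were 6 of the 8 arrays of Psmb9 above it, so that both were tested because of the set in which they are high. They lay below in all 3 groups for 1 member, Irf1, against a background of 4.72%. On the log2 scale the differences between the sets were 0.81, 1.15 and 0.38 for Psmb9 in young controls, old controls and calorie-restricted mice, and -0.93, -0.56 and -0.57 for Irf1. With the number set as a term in the fit, 4 members passed with age, Ly6e, H2-K1, H2-D1 (M69069_f_at) and B2m, and 3 with the diet, Tapbp, Ly6e and B2m. Calls over all tested probe sets also became more frequent in that fit, at 7.62% with age and 4.96% with the diet. The part of the number set in any change was not tested beyond the values given within each set.

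Correlations between members over the 15 animals are descriptions of log2 values that share arrays and the number set. For Psmb8, at the floor in all animals numbered 1 to 3, none is given. B2m and Psmb9 had r = 0.75 (within groups 0.76), with Psmb9 at the floor in 7 of the 15 animals. B2m and Irf1 ran opposite (r = -0.45, within groups -0.66). Ly6e went with H2-K1 u47329_f_at (r = 0.80, within groups 0.60) and with Irf1 (r = 0.57, within groups 0.69).

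Further genes of the class I pathway were looked at from a list of 31. Of these 18 had a probe set, 24 in all, and 10 probe sets of 7 genes were tested. With age, with the diet and between calorie-restricted mice and young controls 0 of the 10 passed, with medians of 0.16, -0.12 and 0.02. Over all tested probe sets 5.05%, 2.62% and 5.72% were called in these comparisons, with medians of -0.04, 0.03 and -0.01. Calr, the chaperone calreticulin of the loading complex, read 12237 ± 4553 in young controls, 13222 ± 5977 in old controls and 11069 ± 2469 in calorie-restricted mice (X56603_s_at). The other Calr probe set, x14926_s_at, was above the floor on no array. Psme1, a proteasome activator subunit induced by interferon-gamma, differed by 0.23 ± 0.13 with age (adjusted p = 0.386), and Pdia3, the disulfide isomerase partner of tapasin, by -0.16 ± 0.18 (adjusted p = 0.751). H2-Q10, a heavy chain known as a secreted form of liver, differed by 0.08 ± 0.18 with age (adjusted p = 0.882). Tap2, the other chain of the transporter, and Psmb10, the remaining immunoproteasome subunit, were above the floor on no array, like Tap1. Of the constitutive subunits, Psmb6 and Psmb7 were measured and 0 of 2 passed in any of the 3 comparisons. The age change was -0.07 ± 0.16 for Psmb6 (adjusted p = 0.875), which Psmb9 replaces.

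Of 82 other interferon genes, 55 had a probe set, 66 in all. Of these 47 probe sets were above the floor on no array, including those of Ifng, Ifnb1, Isg15, Mx1, Ifit1, Cxcl9 and Irgm1, and 11 were tested. Irf7 (U73037_s_at) was above the floor in 4 of 5 old controls, 0 of 5 young controls and 0 of 5 calorie-restricted mice, and so was not tested. With age 2 of the 11 passed, both higher, with a median of 0.41. Over all tested probe sets 2.95% were called higher and the median was -0.04. Stat3, a transcription factor of cytokine signalling, read 3830, 3612, 3908, 3900 and 3538 in young controls and 5184, 6927, 6099, 6686 and 4853 in old controls (u06922_s_at), a rise of 0.65 ± 0.12 with no overlap (adjusted p = 0.00305). Its second probe set, aa396029_s_at, had 0.55 ± 0.27 (adjusted p = 0.324). Lgals3bp, a secreted glycoprotein that binds galectin-3, was above the floor in 5 of 5 old controls, 2 of 5 young controls and 0 of 5 calorie-restricted mice (x67809_s_at). It rose by 0.89 ± 0.17 with age on floored values (adjusted p = 0.00303 by limma). In calorie-restricted mice it was at least 1.90-fold lower than in old controls (adjusted p = 0.00612), the only diet call among the 11. With the diet 1.71% of all tested probe sets were called lower. Lgals3bp was tested because of the old controls, the group in which it is high. The counts that hold its calls are therefore not read against the shares over all tested probe sets. Ifngr1, a chain of the interferon-gamma receptor, differed by 0.48 ± 0.15 with age (adjusted p = 0.0725). For Rsad2 (aa175784_s_at) the lowest old control, at 1196.8, was barely above the highest young control, at 1196.4. Only 2 of 5 young controls were above the floor. Old controls lay wholly above young controls in 3.41% of all tested probe sets. The Rsad2 age change of 0.41 ± 0.16 on floored values did not pass (adjusted p = 0.179 by limma). Other tested genes did not rise. Mx2 (J03368_at), above the floor on all 15 arrays, differed by -0.20 ± 0.19 with age (adjusted p = 0.681 by limma). Its diet change was 0.26 ± 0.19 (adjusted p = 0.562). Irf8 and Adar had age changes of -0.03 and -0.02. Between calorie-restricted mice and young controls 0 of the 11 passed, where 5.72% of all tested probe sets were called.

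Markers of immune cells differed between the same groups, and their part in the changes of H2-K1, Ly6e and Tapbp was not tested. In bulk tissue fewer cells of a type and less RNA per cell cannot be told apart. Of 20 tested probe sets of the macrophage and dendritic list, 15 were higher in old than in young controls and 11 were lower in calorie-restricted mice than in old controls by the same test. Over all tested probe sets these shares were 2.95% and 1.71%. The 20 cover 13 genes, of which 9 were called with age and 6 with the diet. Not called with the diet were, among others, Ptprc (-0.0007), Cd68 (-0.34), Fcer1g (-0.39) and Lyz2 (-0.92). Nor was the H2-Eb1 probe set Msa.952.0_at, with a diet change of 0.63. The summed intensity of that list was 71537 to 93275 in young controls, 156917 to 187243 in old controls and 87029 to 110565 in calorie-restricted mice, while Adgre1, Csf1r, Fcgr3 and Cd53 were above the floor on no array. For B and plasma cells these were 5 and 5 of 7 tested probe sets. The 7 cover 5 genes, of which 3 were called with age and with the diet, Igha, Ighm and Jchain. Not called were Ms4a1 (aa218177_s_at), with changes of -0.09 and -0.28, and Cd79b, with 0.28 and -0.36. A second Ms4a1 probe set, Cd22 and Cd79a were above the floor on no array. A called Ighm probe set was above it only in the 5 old controls. The summed intensity of this list was 27314 to 33850, 106243 to 212719 and 29776 to 56090. In young controls Ms4a1 aa218177_s_at alone had a mean of 19696.5. Of the T and NK cell list 11 of 12 probe sets were above the floor on no array. The endothelial list had 0 of 3 called, with summed intensities of 11747 to 14652, 14179 to 20047 and 12539 to 19149.

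The 10 member probe sets not at the floor on most arrays were averaged into 1 profile, each scaled alike, and the 6 genes that followed it most closely over the 15 animals were named. Highest was H2-Ab1, a class II chain (v01527_s_at, r = 0.88, within groups 0.74), then H2-Aa, its class II partner (Msa.958.0_f_at, 0.86 and 0.66), and Lyz2, the lysozyme of macrophages (M21050_s_at, 0.81 and 0.56). The other three were Ifi27, an interferon-induced gene (aa711625_s_at, 0.81 and 0.81), H2-Eb1, a further class II chain (x00958_s_at, 0.79 and 0.48), and Adipoq, the adipocyte hormone adiponectin (u37222_s_at, 0.79 and 0.75). Of these 6 the class II genes H2-Ab1, H2-Aa and H2-Eb1 belong to the macrophage and dendritic list above, as does Lyz2.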

How the data were processed

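The deposited values are intensities, whole numbers per probe set on a linear scale, of which 20.8% to 26.6% were negative on A arrays and 29.2% to 35.9% on B arrays. How the authors made these intensities, software and background step included, is not given in the sources used here. The sample titles gave group and number, and the rows of both tables were stacked by animal.

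From the deposited intensities, 122 control probe sets were left out, as were 77 rows of the A array with no values for young controls, 16 of which were no controls. Each array was scaled to its table's common mean after trimming 2% at each end (factors 0.995 to 1.01). Values below the floor were raised to it before log2 was taken, which understates changes of dim genes. Of the probe sets, 2609 on the A array and 1903 on the B array were above the floor on at least 5 arrays and tested. A single fit of the 3 groups was made by limma 3.58.1 under R 4.3.3 (lmFit, eBayes, two-sided), and p-values were adjusted by Benjamini-Hochberg over the tested probe sets of both tables, with calls at 0.05. The script was tested on simulated data. Array annotation named the probe sets, 7561 with 1 symbol, and symbols were updated by gene number with the RefSeq table of GRCm38.p6. It named 4567 probe sets of the B array with no gene, which were not used by name. Probe sets of a gene are reported apart and were not averaged.

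The text names all member probe sets, genes of fixed lists and the 6 genes closest to the mean member profile. Within the lists the named examples were chosen after their values were seen. Members and lists were chosen with earlier results of these data known. Alternatives were quantile normalization, unscaled values, a higher and a lower floor, other filters, asinh in place of log2, robust moderation with a trend, separate fits, separate adjustment, the title number as a replicate block, the number set as a term, each number set alone, leaving out the set-apart class and leaving out each animal. Figures were drawn with matplotlib 3.10.9. The number of arrays limits the precision. A further promoter motif that was searched is not reported here.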

Additional observations from a re-analysis of the deposited data

Results flagged for a closer look

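For the tested members 33 groups of 5 animals were checked on floored log2 values, while the readings below are linear. Of these groups 2 held an animal whose distance from the nearest other animal was over 0.71 of the group's range, and chance marks about 1 in 20 groups. The dim H2-K1 probe set m69070_f_at read 953 in old control 2, below the other old controls (0.741 of the range). Irf1 (M21065_s_at) read 4798 in old control 3, above the other old controls (0.75 of the range).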

How the results depend on the processing

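Of 33 member results, 26 kept their side of the threshold in every setting run, 7 changed side and 0 of the called ones reversed. As reported, the calls were 2 members with age, 1 with the diet and 0 between calorie-restricted mice and young controls, of 228, 118 and 258 probe sets in all.

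With age, 1 member was called with the floor halved (of 282 calls), with no filter (173), with animals 1 to 3 alone (155), with adjustment within each table (231) and without the set-apart class (150). There were 3 with the floor doubled (of 175) and with the filter of all arrays of a group (241), and 4 of 344 when the number set was a term. Animals 4 and 5 alone gave 2 of 140. With the diet, the number set as a term gave 3 members of 224 calls, animals 1 to 3 alone 2 of 250, animals 4 and 5 alone 0 of 9, no filter 0 of 68, and the old groups alone 67 calls in all. Between calorie-restricted mice and young controls the calls were 439 with the term, 106 with animals 4 and 5 alone and 169 without the class. The cause was not tested.

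Same-numbered animals of different groups correlated with a mean r of 0.266 in their deviations (-0.0115 to 0.496), against 0.272 for other numbers of the same set. No pairing by number was therefore seen in these values, and the labels do not say whether there was any. With the title number as a replicate block, 1 member of 274 calls was called with age (Ly6e, H2-K1 being lost at an adjusted p of 0.0614) and 2 of 165 with the diet (Tapbp, and Ly6e at 0.0341).

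Leaving out 1 animal at a time gave 1 to 4 members with age (4 without old control 2), 1 to 2 with the diet (2 without young control 5) and 0 in the third comparison. All calls ranged over 178 to 252, 73 to 127 (73 and 77 without calorie-restricted animals 1 and 5) and 195 to 266. Background limits Tap1, Psmb8 and Psmb9.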
